A study of Homo sapiens with 6 samples.

Results

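The regions described here are the ATAC-seq regions named for 10 genes that are textbook targets of NF-kB or its cytokine output: NFKBIA, TNFAIP3, NFKBIZ, LIF, IL6, CSF2, CXCL1, CXCL2, CCL2 and IL1B. All rows carrying one of these gene names were kept at every distance, which gave 154 regions of 501 bases, out of 226920 regions in all. ATAC-seq measures how accessible chromatin is, because the Tn5 transposase places sequencing adapters into open DNA. The cells were A375, an established human melanoma line. Each of 3 groups had 2 libraries: mock cells, which the labels call untreated, and cells exposed to recombinant HMGA1 protein either for 2 h or for 18 h. HMGA1 is a small chromatin protein that binds AT-rich DNA, and the series asks what its entry into melanoma cells does. In all groups the cells were frozen, thawed and treated with DNase I before their nuclei were exposed to Tn5. The dose of the protein, and whether mock cells received a carrier, are not given in the sources used here.

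NF-kB is a family of dimeric transcription factors, such as RELA with NFKB1, that an inhibitor (NFKBIA, also called IkB alpha) holds in the cytoplasm. Signals from cytokine or pattern receptors activate a kinase complex that marks the inhibitor for destruction, and the freed dimer binds kappaB sites in DNA. Among its targets are its own brakes, NFKBIA and TNFAIP3, and secreted cytokines and chemokines. Melanoma cells often keep NF-kB active and secrete chemokines such as CXCL1, which was first isolated as a growth factor of melanoma cells.

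The promoter sequences are shown because NF-kB is known to act through kappaB motifs near gene starts, so that the values at the starts can be read beside these letters. A match describes the sequence and does not show binding. RefSeq (GRCh38.p14) promoter windows were found for 8 of the 10 genes (9 windows, with a pair for NFKBIZ). LIF and CCL2 had no window in that table. In the 250 bases before the start, a match to the kappaB consensus on either strand was found in 7 of the 9 windows (77.8%), against 5.21% of all 35116 windows. The genes were listed as NF-kB targets, so this share describes the choice of genes. Windows of CSF2 and IL1B held no match, and no window held the AP-1 motif TGANTCA, which 6.57% of all windows held. HMGA1 is known for AT-rich DNA, and the A+T share of the 250 bases was highest at IL1B (60.0%) and IL6 (52.4%) and lowest at TNFAIP3, with a median of 42.0% over all windows. The stretches of 120 bases below are written 5′ to 3′ along the gene, with the kappaB matches in capitals. CXCL1 and CXCL2 each carry matches on both strands that overlap by all but 1 base at each end. The stretches of NFKBIA, TNFAIP3, IL6, CXCL1 and CXCL2 end at the base before the start given with their window. Those of NFKBIZ end 131 bases before it. The TNFAIP3 stretch lies inside the RefSeq gene span, whose first base is 1095 bases before the start used in the files.
NFKBIA, chr14:35404750-35404869, minus strand: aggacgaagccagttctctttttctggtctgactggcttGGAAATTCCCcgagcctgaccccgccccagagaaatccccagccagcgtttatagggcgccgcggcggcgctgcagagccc
TNFAIP3, chr6:137867139-137867258, plus strand: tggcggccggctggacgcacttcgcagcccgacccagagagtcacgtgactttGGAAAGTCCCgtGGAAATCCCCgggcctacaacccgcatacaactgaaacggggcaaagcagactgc
IL6, chr7:22727080-22727199, plus strand: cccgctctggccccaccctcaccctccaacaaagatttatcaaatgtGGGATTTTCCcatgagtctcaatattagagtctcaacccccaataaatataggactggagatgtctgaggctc
CXCL1, chr4:73869273-73869392, plus strand: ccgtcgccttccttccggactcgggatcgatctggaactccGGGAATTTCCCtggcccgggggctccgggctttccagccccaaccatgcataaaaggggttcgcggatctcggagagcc
CXCL2, chr4:74099196-74099315, minus strand: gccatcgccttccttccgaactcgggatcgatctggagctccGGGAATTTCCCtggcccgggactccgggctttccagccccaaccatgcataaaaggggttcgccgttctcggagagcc
NFKBIZ outer start, chr3:101827740-101827859, plus strand: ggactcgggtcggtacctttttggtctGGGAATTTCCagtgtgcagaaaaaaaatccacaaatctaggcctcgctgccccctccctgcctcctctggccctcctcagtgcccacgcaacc
NFKBIZ inner start, chr3:101849264-101849383, plus strand: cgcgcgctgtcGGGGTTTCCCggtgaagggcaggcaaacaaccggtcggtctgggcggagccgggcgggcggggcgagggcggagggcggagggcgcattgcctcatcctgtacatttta

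The values are those of the authors' DESeq2 comparisons. For each region the files give its mean signal over all 6 libraries (read counts divided by size factors), the log2 fold change with its standard error (SE), a p and an adjusted p. A region was called where that adjusted p was under 0.05. Regions with a low mean signal have a p but were left out of the adjustment, and are called not tested here. By that reading 76 of the 154 regions were tested at 2 h and 52 at 18 h, both against mock. In the comparison of 18 h with 2 h, 96 were tested. No value of a single library was in the files, so whether libraries of different groups overlap was not analysed here, and the depth of each library is unknown. The 154 regions were spread unevenly over the genes, with 33 named for LIF, 28 for TNFAIP3, 25 for NFKBIZ, 18 for NFKBIA, 15 for IL6, 12 for CSF2, 8 for CXCL1, 6 for CXCL2, 5 for IL1B and 4 for CCL2. Mean signals ran from 14.3 to 836 with a median of 55.4, against 39.3 over all regions. Of the 154, 9 lay at a gene start (5.84%, against 4.19% of all regions) and 90 at 10 to 100 kb from it (58.4% against 46.7%). Levels per group given below are approximate, computed from the mean signal and both fold changes against mock. Separate cultures are not stated in the labels, which speak of 2 biological replicates, so each p-value reflects only the spread between these libraries, which may be technical. All 3 comparisons come from 1 fit. The comparisons with mock share the mock libraries. The 2 h libraries enter both the comparison of 2 h with mock and that of 18 h with 2 h, with opposite sign. A rise at 2 h and a fall to 18 h at the same region are therefore not independent results. The comparison of 18 h with 2 h is the direct test of whether these groups differ. The labels give no time for mock, so length of exposure cannot be told apart from elapsed time.

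Accessibility at gene starts was compared with markers of the cell type. Of 10 melanocyte and melanoma markers 5 had a region at the start (SOX10, MITF, PMEL, S100B and NGFR), while MLANA, TYR, DCT, TYRP1 and AXL had none. None of 4 keratinocyte and 4 endothelial markers had one, against 1 of 6 immune markers (LYZ) and 1 of 4 fibroblast markers (PDGFRB). A missing start region alone does not show closed chromatin, since GAPDH also lacked one while the other 4 of 5 housekeeping genes had one. Cells other than melanoma cells were not tested for as a source of the results.

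After 2 h with HMGA1, single distal regions of 3 genes gained accessibility, and none of the tested member regions was called lower. They were named for NFKBIZ, which encodes a nuclear cofactor of NF-kB, LIF, a cytokine of the interleukin-6 family, and CSF2, the colony-stimulating factor GM-CSF. The 3 called regions were 3.95% of the 76 tested, against 0.856% of all tested regions called higher. Called lower were 0 of 76 (DESeq2, authors' deposited table; 2 had an unadjusted p under 0.05), against 0.421% of all tested regions. From 2 h to 18 h, 6 regions at LIF (3), CSF2, NFKBIZ and CCL2 fell, which is 6.25% of the 96 tested against 2.98% of all tested regions. None of the 96 rose (0 at an unadjusted p under 0.05), against 0.498% of all tested regions. At 18 h against mock 0 of 52 had an adjusted p (DESeq2) under 0.05. Of all tested regions 0.116% were called lower and 0.00542% higher at that threshold. At an unadjusted p under 0.05 (DESeq2), 7 of the 52 were lower and 0 higher, against 7.32% and 0.569% of all tested regions. These shares are counts over regions that lie in clusters at the same loci, and no test was made of them. The members were also chosen with earlier results of these data known.

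**Figure D1:**
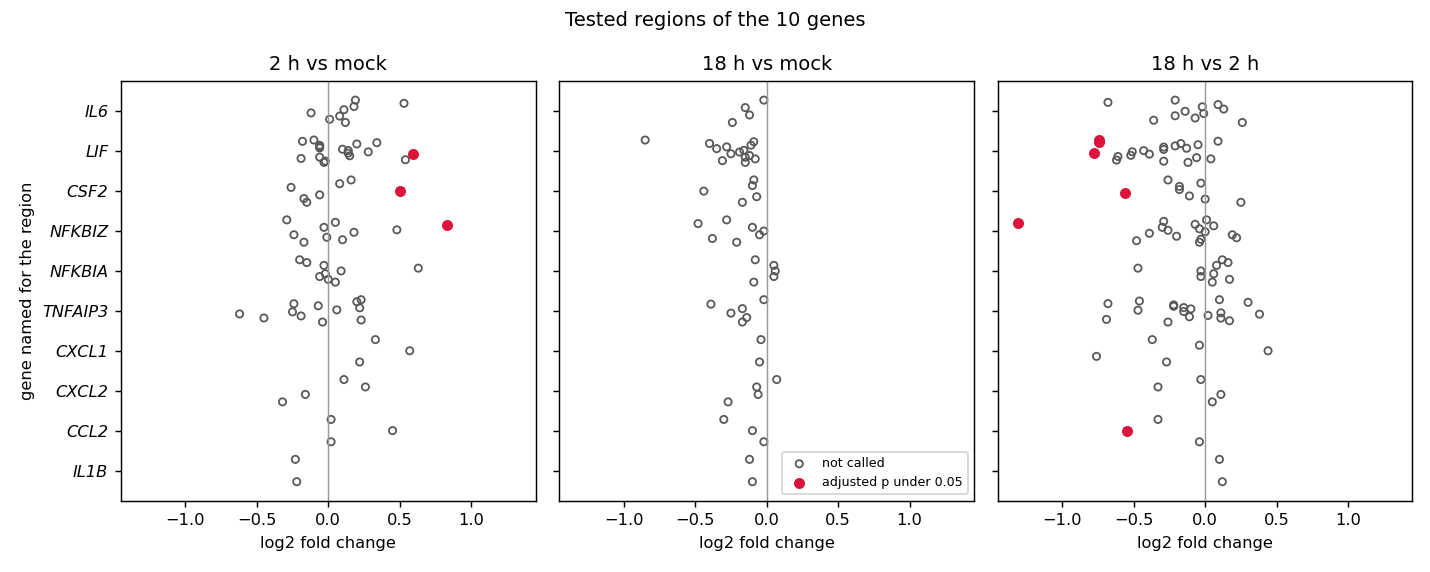
Log2 fold change (x axis) of every tested region named for each gene (y axis) in the 3 comparisons, with 1 circle per region; filled red circles have an adjusted p under 0.05. Red circles lie to the right at 2 h for LIF, CSF2 and NFKBIZ and to the left at 18 h against 2 h for LIF, CSF2, NFKBIZ and CCL2.

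With uncalled regions counted too, the lower side prevailed from 2 h to 18 h. In that comparison 22 of 96 tested members had an unadjusted p under 0.05, and all 22 were lower at 18 h, whereas 8.18% of all tested regions were lower and 3.44% higher at that p. Of the 22, 8 were named for LIF, 3 for TNFAIP3, 2 each for CSF2, IL6, NFKBIZ, CXCL1 and CCL2, and 1 for CXCL2. NFKBIA and IL1B contributed none. The median log2 fold change from 2 h to 18 h was -0.12 over the tested members, against 0.01 over all tested regions. Over all 154 members it was -0.11, against 0.01 over all regions, tested or not. At 2 h it was 0.02 over the tested members, against -0.06 over all tested regions. Over all 154 members it was 0.08 at 2 h, against 0.00 over all regions, tested or not. At 18 h against mock 4 of 52 tested members lay above 0, against 30.5% of all tested regions, and their median was -0.12 against -0.07.

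**Figure D2:**
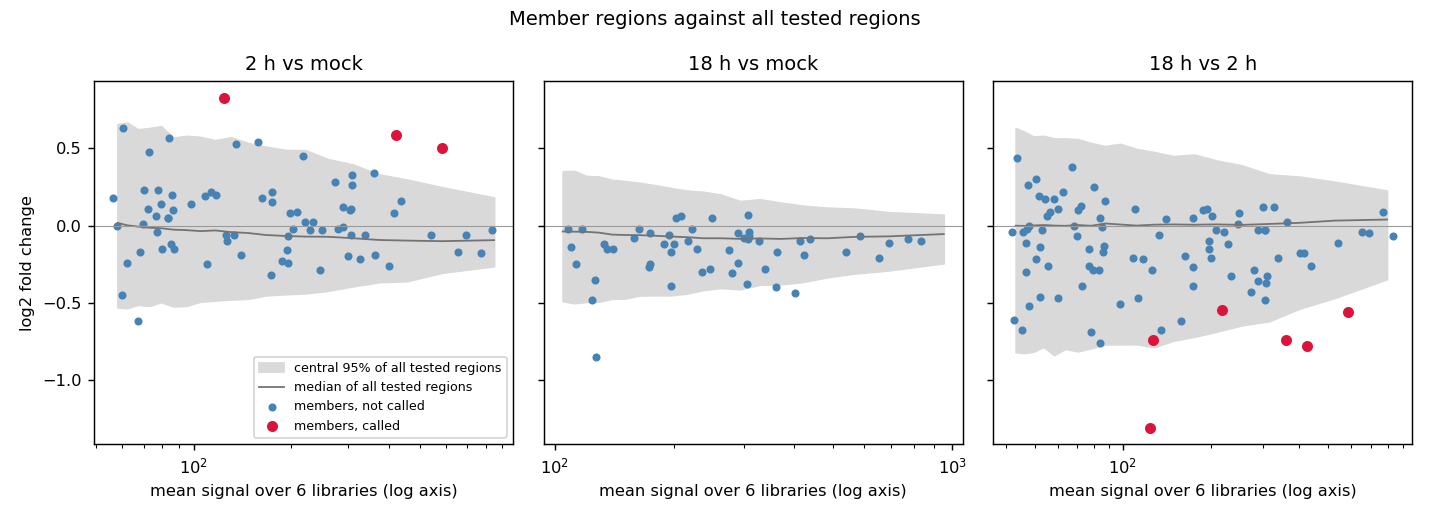
Log2 fold change (y axis) of tested member regions against their mean signal over the 6 libraries (x axis, log scale), with the grey band covering the central 95% of all tested regions and the grey line their median. The 3 called members at 2 h lie above the band; of the 6 called falls from 2 h to 18 h, those at CCL2 and at LIF 62.5 kb from its start lie inside it and the others below it.

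Among the regulators, NFKBIZ had the one called region, with the largest fold changes of the called members. Its protein, IkB zeta, sits in the nucleus and helps NF-kB switch on secondary genes such as IL6. The region lay at chr3:101842468-101842969, inside the NFKBIZ span, 14.5 kb from the outer start of the gene and 6.54 kb before the inner RefSeq start. Its mean signal was 124, with approximate levels of 107 in mock, 190 at 2 h and 76.5 at 18 h. The authors' deposited table gave a log2 fold change of 0.83 ± 0.21 (SE) at 2 h, a 1.78-fold rise with an adjusted p of 0.0143. From 2 h to 18 h the region fell 2.48-fold, by 1.31 ± 0.22 on the log2 scale (adjusted p 1.33e-06, authors' deposited table). Against mock at 18 h it stood at -0.48 ± 0.23 and was not called (adjusted p 0.584, authors' deposited table).

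None of the other NFKBIZ regions was called in any comparison, the regions at both starts included. The region at the outer start had -0.29 ± 0.16 at 2 h and -0.28 ± 0.16 at 18 h in the authors' deposited table. The region that covers the promoter stretch of the inner start shown above had the highest mean signal of all 154 members (836). It changed by -0.03 ± 0.09 at 2 h and -0.10 ± 0.09 at 18 h (SE, authors' deposited table). The called rise at 2 h was thus at 1 region between both starts, while the 95% interval of the region at the inner start ran from -0.20 to 0.14. The smallest p at 18 h against mock was at a region 122 kb off, with -0.21 ± 0.10 (adjusted p 0.560, authors' deposited table). Around the called NFKBIZ region, 9 others within 50 kb were tested for 18 h against 2 h, and 0 were called (DESeq2; 0 had an unadjusted p under 0.05).

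NFKBIA and TNFAIP3, the feedback brakes, showed no called region. TNFAIP3 encodes the ubiquitin-editing enzyme A20, which shuts down signalling upstream of NF-kB. At the NFKBIA start the approximate levels were 317 in mock, 304 at 2 h and 297 at 18 h. The 2 h log2 fold change there was -0.06, with a 95% interval from -0.34 to 0.22 (authors' deposited table). At the TNFAIP3 start they were 393, 344 and 350, and the 2 h interval ran from -0.45 to 0.07 (authors' deposited table). At 18 h against mock the intervals ran from -0.37 to 0.18 for NFKBIA and from -0.42 to 0.09 for TNFAIP3 (authors' deposited table). The start regions of both genes, with their kappaB matches, were thus open in every group. All these intervals include 0, and falls as large as their lower ends remain possible.

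Among tested regions away from the starts, the smallest p at 2 h for NFKBIA was at a region 29.9 kb off, with 0.63 ± 0.30 (adjusted p 0.444, authors' deposited table). The same region had -0.47 ± 0.30 from 2 h to 18 h (adjusted p 0.633, authors' deposited table). These values did not pass the test. For TNFAIP3 it was 5.35 kb upstream, with -0.62 ± 0.30 (adjusted p 0.442, authors' deposited table). From 2 h to 18 h the TNFAIP3 region with the smallest p, 58.8 kb from the start and beyond the gene's far end, had -0.69 ± 0.27 (adjusted p 0.163, authors' deposited table). At 18 h against mock it was a region 42.9 kb upstream, with -0.39 ± 0.18 (adjusted p 0.568, authors' deposited table). None of these TNFAIP3 regions was called. Over all tested regions of a gene, the 2 h fold changes ran from -0.20 to 0.63 for NFKBIA (9 regions) and from -0.62 to 0.23 for TNFAIP3 (12 regions).

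LIF held 3 of the 6 regions called lower from 2 h to 18 h. LIF acts through the receptor subunit gp130, shared with interleukin-6. All 3 called regions lay on the downstream side of the gene, and both outer ones lay inside the span of another gene, HORMAD2. The one nearest to LIF (chr22:30235665-30236166) lay 4287 bases past the end of the gene and 10.7 kb from its start. Its approximate levels were 375 in mock, 564 at 2 h and 330 at 18 h. In the authors' deposited table it rose 1.50-fold at 2 h, by 0.59 ± 0.13 (SE, adjusted p 0.00107). It then fell 1.71-fold to 18 h, by 0.78 ± 0.13 (adjusted p 5.31e-07, authors' deposited table).

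A further LIF region 39.5 kb from the start (chr22:30206900-30207401) had approximate levels of 358, 454 and 271. Neither step from mock was called, at 0.34 ± 0.13 for 2 h and -0.40 ± 0.14 for 18 h in the authors' deposited table (adjusted p 0.241 and 0.262). The step from 2 h to 18 h was, with a fall of 0.74 ± 0.14 (adjusted p 1.01e-05, authors' deposited table). The outermost of the called LIF regions, 62.5 kb away (chr22:30183864-30184365), differed in pattern, since its level was close to mock at 2 h (153 and 142) and lower at 18 h (85.0). The authors' deposited table gave it -0.10 ± 0.22 at 2 h, -0.85 ± 0.23 at 18 h (adjusted p 0.0775) and a called fall of 0.74 ± 0.23 between them (adjusted p 0.0356). That last call is lost when no filter on mean signal precedes the adjustment (adjusted p 0.0714).

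The LIF start itself was not called. It was a region of moderate signal (140), with approximate levels of 151, 133 and 136. Its 2 h log2 fold change was -0.19 ± 0.20 in the authors' deposited table, with a 95% interval from -0.58 to 0.21. The strongest LIF regions, 50.3 and 36.0 kb from the start, had -0.18 ± 0.09 and -0.06 ± 0.10 at 2 h (authors' deposited table). Of the 20 LIF regions tested for 18 h against 2 h, 18 lay below 0, with a median of -0.29. Of all tested regions 51.9% lay above 0 in that comparison, with a median of 0.01. Within 50 kb of the called regions at 10.7, 39.5 and 62.5 kb, 22, 20 and 9 others of any gene name were tested in that comparison. Of these 1, 2 and 1 were called lower (DESeq2), all of them the other called LIF regions. At an unadjusted p under 0.05 (DESeq2), 6, 7 and 2 were lower and 0 higher. Of all tested regions 8.18% were lower and 3.44% higher at that p. The windows around the called LIF regions overlap, so the same regions enter more than 1 of these counts. At 18 h against mock all 14 tested LIF regions lay below 0, with a median of -0.17, and none was called. Most of all tested regions were also below 0 there, since 30.5% lay above it, and their median was -0.07.

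IL6, a cytokine of acute inflammation and a classical NF-kB target, had no called region. The start used in the files lies 1316 bases before the RefSeq start, and no region overlapped the RefSeq promoter window, part of which is shown above. The region at the start used in the files was weak (mean signal 85.2) and had -0.12 ± 0.25 at 2 h (authors' deposited table). The region nearest to the RefSeq start ended 396 bases before it (chr7:22726303-22726804). It had approximate levels of 200 in mock, 212 at 2 h and 184 at 18 h, and a 2 h log2 fold change of 0.08 ± 0.17 (authors' deposited table). A region inside the gene, with the highest mean signal of IL6 (289), had 0.12 ± 0.14 at 2 h and -0.36 ± 0.14 from 2 h to 18 h (adjusted p 0.189, authors' deposited table).

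An upstream IL6 region came close to the threshold. It lies 73.5 kb from the start used in the files (chr7:22651848-22652349), inside a long noncoding RNA gene, LOC401312. Its approximate levels were 121, 175 and 109, highest at 2 h as at the NFKBIZ region. The authors' deposited table gave 0.53 ± 0.22 at 2 h (adjusted p 0.293) and -0.68 ± 0.22 from 2 h to 18 h (adjusted p 0.0532). It was called in the latter comparison when the fold changes were centred on the median tested region (adjusted p 0.0457) or within bins of mean signal (adjusted p 0.0480).

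**Figure D3:**
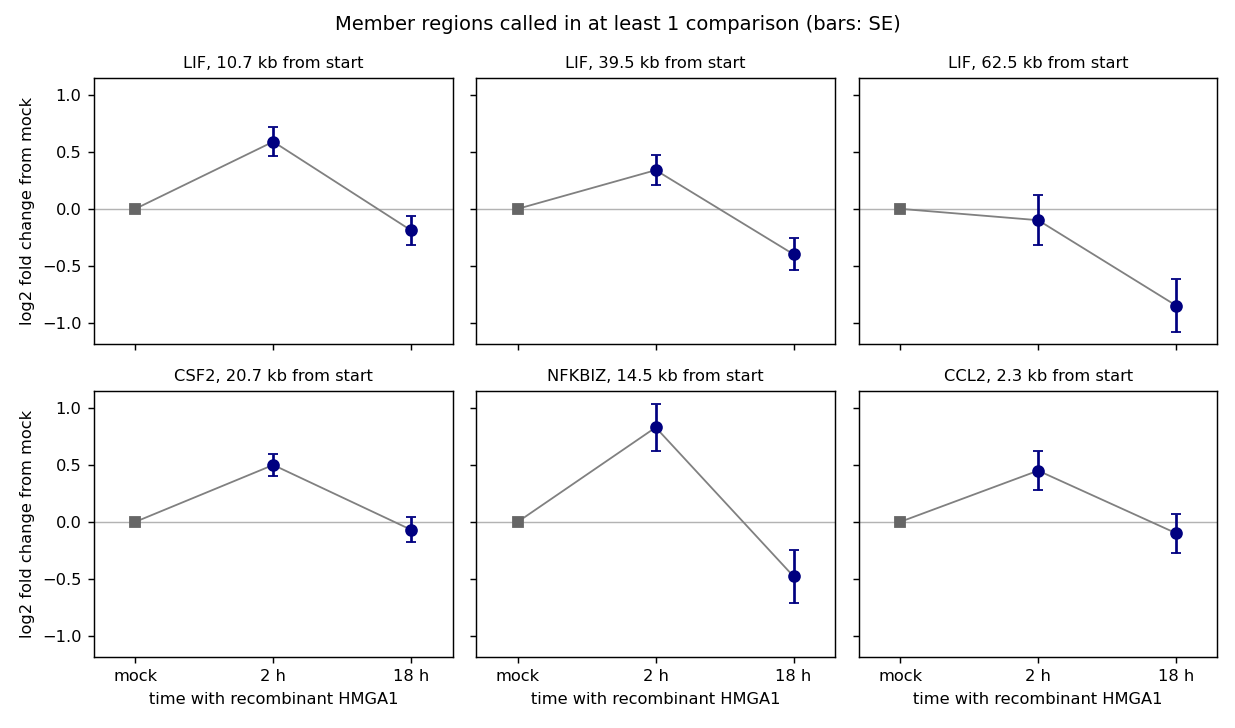
Log2 fold change from mock (y axis, mean with SE bars from the authors' table) at 2 h and 18 h for the 6 called member regions, with mock set to 0. All panels but 1 lie above mock at 2 h and below it at 18 h. The LIF region at 62.5 kb stays near mock at 2 h and is lower at 18 h. None of these regions was called at 18 h against mock, and the SE bars of CSF2 and CCL2 reach mock there.

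CSF2 encodes a growth factor of granulocytes and macrophages. Its called region (chr5:132094491-132094992) lay 20.7 kb from the start and 18321 bases past the end of the gene, with no RefSeq gene spanning it. It had the highest mean signal of any CSF2 region (585). Approximate levels were 521 in mock, 737 at 2 h and 498 at 18 h. The rise at 2 h was 1.41-fold, 0.50 ± 0.10 on the log2 scale (adjusted p 7.81e-04, authors' deposited table). The fall to 18 h was 1.48-fold, a log2 change of -0.56 ± 0.10 (adjusted p 1.68e-05, authors' deposited table). At 18 h the region stood at -0.07 ± 0.11 against mock and was not called (adjusted p 0.974, authors' deposited table).

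No other CSF2 region was called. A strong CSF2 region 28.4 kb from the start (mean signal 540) had -0.06 ± 0.11 at 2 h in the authors' deposited table. One 16.2 kb from the start had -0.26 ± 0.13 at 2 h and -0.44 ± 0.13 at 18 h (adjusted p 0.457 and 0.137, authors' deposited table). The CSF2 start was open, with approximate levels of 430, 482 and 402 and a 2 h value of 0.16 ± 0.12 (authors' deposited table). Of 10 regions tested for 18 h against 2 h within 50 kb of the called one, 0 were called (DESeq2; 1, lower, had an unadjusted p under 0.05).

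**Figure D4:**
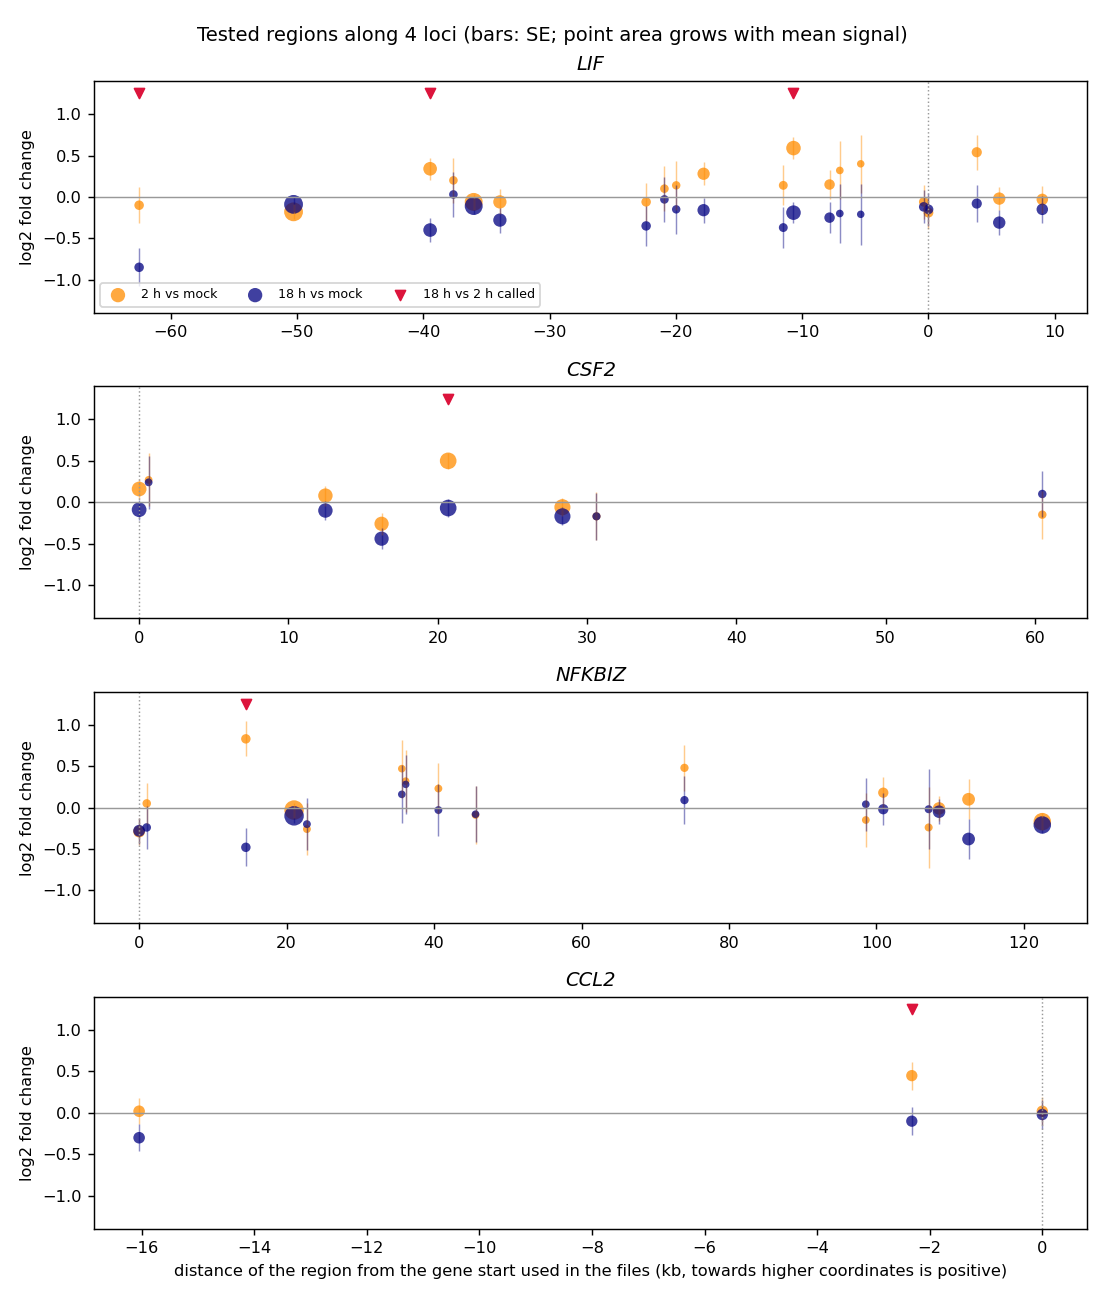
Log2 fold change against mock at 2 h (orange) and 18 h (blue) for regions of LIF, CSF2, NFKBIZ and CCL2 tested for 18 h against 2 h, by distance from the gene start used in the files (x axis, kb), with SE bars and point area growing with mean signal. Red triangles mark the called falls from 2 h to 18 h, 3 at LIF and 1 each at CSF2, NFKBIZ and CCL2, beside other regions that were not called.

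Of the chemokine genes, 1 had a called region. CCL2 attracts monocytes through the receptor CCR2. A region 2.32 kb upstream of CCL2 (chr17:34252466-34252967) had approximate levels of 197 in mock, 270 at 2 h and 184 at 18 h. The authors' deposited table gave 0.45 ± 0.17 at 2 h, which was not called (adjusted p 0.197), and a called fall of 0.55 ± 0.17 from 2 h to 18 h (adjusted p 0.0313). Without a filter on mean signal that call is lost (adjusted p 0.0630). The CCL2 start had approximate levels of 222, 224 and 218 and a 2 h value of 0.02 ± 0.17 (authors' deposited table). The strongest CCL2 region, 16043 bases upstream (mean signal 234), had -0.30 ± 0.16 at 18 h and -0.33 ± 0.16 from 2 h to 18 h (adjusted p 0.654 and 0.384, authors' deposited table). Of 2 regions tested for 18 h against 2 h within 50 kb of the called one, 0 were called (DESeq2, with 1 lower at an unadjusted p under 0.05).

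CXCL1 and CXCL2 attract neutrophils through CXCR2, and their promoters share a run of 42 identical bases, so that short reads there may be hard to assign. The treatment of such reads is not given in the sources used here, and values at these starts are uncertain to that extent. At the CXCL1 start the approximate levels were 285 in mock, 359 at 2 h and 278 at 18 h. The authors' deposited table gave 0.33 ± 0.14 at 2 h (adjusted p 0.338) and -0.37 ± 0.14 from 2 h to 18 h (adjusted p 0.156). The CXCL2 start had 293, 315 and 308, and 0.11 ± 0.14 at 2 h (authors' deposited table). CXCL1 was the member with the highest 2 h value at its start, but neither start passed the test.

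Fold changes at distal regions of CXCL1 and CXCL2 had mixed signs. A CXCL1 region 16.4 kb from the start had 0.57 ± 0.26 at 2 h and -0.76 ± 0.26 from 2 h to 18 h (adjusted p 0.406 and 0.0873, authors' deposited table). One 10.2 kb from the CXCL2 start had 0.26 ± 0.14 and -0.33 ± 0.14 (adjusted p 0.513 and 0.211, authors' deposited table). The other tested distal CXCL2 regions, 14.9 and 17.7 kb off, had values of the opposite sign that were small beside their SEs. At 2 h they had -0.16 ± 0.18 and -0.32 ± 0.21, and from 2 h to 18 h 0.11 ± 0.17 and 0.05 ± 0.21 (authors' deposited table). None of these was called.

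IL1B, the inflammatory cytokine interleukin-1 beta, stood apart in having no region near its start. The nearest lay 15.2 kb away, with a mean signal of 18.8, so low that it was left out of the adjustment. Of its 5 regions 2 were tested in each comparison. The stronger, 32.6 kb off (mean signal 327), had -0.22 ± 0.14 at 2 h, and the other -0.23 ± 0.19 (authors' deposited table). Neither was called.

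**Figure D5:**
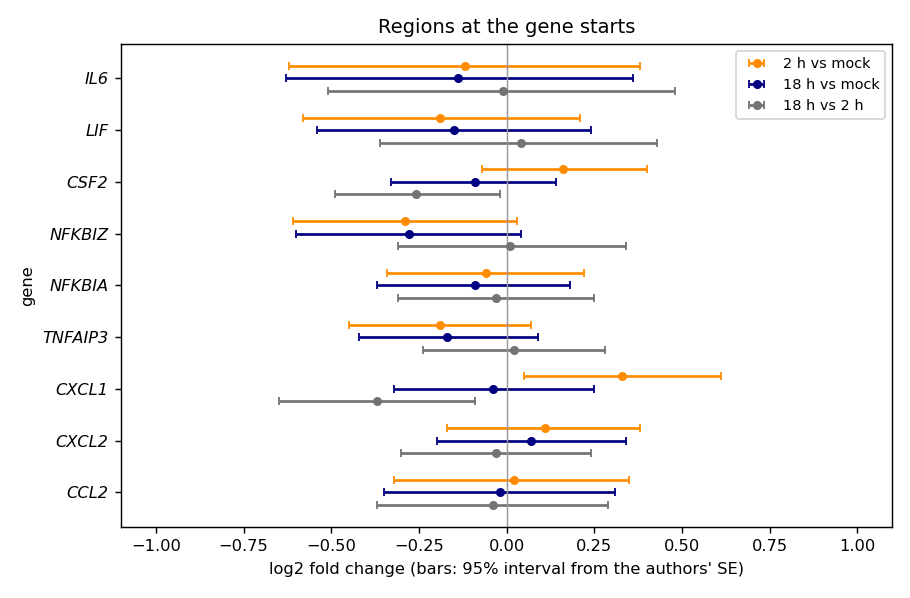
Log2 fold change (x axis, with 95% intervals from the authors' SE) of the region at the start of each of 9 genes (y axis) in the 3 comparisons; IL1B has no region at its start. No start was called, and intervals for CXCL1 at 2 h and for CXCL1 and CSF2 at 18 h against 2 h are the ones that leave out 0.

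The wider pathway was read from lists of other genes, beside 0.498% higher and 2.98% lower of all tested regions for 18 h against 2 h, and 0.856% higher and 0.421% lower at 2 h. The 5 NF-kB subunit genes had 0 of 24 tested regions called for 18 h against 2 h and 0 of 20 at 2 h (DESeq2; at an unadjusted p under 0.05, 1 was higher and 3 lower in the former and 1 higher in the latter). The 10 genes of inhibitors and feedback had 1 higher and 1 lower of 72 for 18 h against 2 h (1.39% each). The lower one was at TNIP1, a partner of A20 (-0.87 ± 0.25), and the higher one at OTUD7B, a deubiquitinase (0.63 ± 0.18, authors' deposited table). For the 23 receptors, adaptors and kinases upstream of NF-kB the count was 2 higher (1.25%) and 1 lower (0.625%) of 160. Both higher regions were named for the kinase gene MAP3K7, at 706 and 127 kb from its start. The former was also the one lower call of 126 at 2 h (-0.85 ± 0.24, authors' deposited table).

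Other NF-kB targets held 7 lower and 0 higher of 179 tested regions from 2 h to 18 h (3.91% lower, against 2.98% of all tested regions). They lay at 4 genes: BCL2L1 and BIRC3, which block cell death, CSF1, which encodes a macrophage growth factor, and CD83. A region 2.31 kb from the BCL2L1 start rose at 2 h by 0.53 ± 0.11 and fell to 18 h by 0.89 ± 0.12, with adjusted p of 0.00103 and 4.86e-11 (authors' deposited table). It was the single call of 149 tested at 2 h in that list (0.671%). A BIRC3 region 56.8 kb from the start fell from 2 h to 18 h by 0.87 ± 0.20 (adjusted p 0.00166, authors' deposited table). Receptors of the member cytokines had 1 higher and 1 lower of 60 in that comparison (1.67% each), at LIFR (0.95 ± 0.23) and IL6R (-0.37 ± 0.11, authors' deposited table). At 18 h against mock 0 regions of all 5 lists were called by DESeq2, against 0.116% lower and 0.00542% higher of all tested regions. At an unadjusted p under 0.05 (DESeq2) none was higher, against 0.569% of all tested regions. Lower at that p were 1 of 16, 1 of 39, 3 of 77, 10 of 94 and 2 of 33, in the order of the lists. Of all tested regions 7.32% were.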

How the data were processed

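The data were 3 deposited tables of the authors' pairwise DESeq2 comparisons of 6 ATAC-seq libraries of A375 cells (2 each of mock, 2 h and 18 h), grouped by the labels' titles. Per the submitters' processing notes the build was hg38 and bcl2fastq 2.17 and DESeq2 (no version named) were used; aligner, peak caller, counter and any Tn5 shift are not given in the sources used here. For every region, the authors deposited the mean signal (counts scaled by size factors), a log2 fold change with SE, the Wald score, the p-value with its adjusted p, and a distance to the named gene; 0 columns hold 1 library. Subtracting the 2 h from the 18 h fold change gave the deposited value of 18 h against 2 h to within 1.02e-14, so all come from 1 fit.

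Repeat rows of a region were dropped. An adjusted p of exactly 1, found only below mean signals of 56.2, 101 and 41.7, was read as not tested; adjustment across all 86137, 55341 and 108134 remaining regions returned the deposited values. Approximate levels per group assume that the mean signal is the mean of 3 group levels in the ratio of the fold changes. Intervals (95%) are the fold change plus or minus the normal quantile times SE. Distances are to the start used in the files, which give coordinates on hg38 without saying whether they count from 0 or 1. The count test planned for tables with counts per library could not be used. Python 3.11.15, pandas 2.3.3 and scipy 1.17.1 were used; centring and adjustment were tested on simulated data. The members, lists and tests were chosen with earlier results of these data known. Named regions were, for each gene, the start region, called regions, the strongest region and the smallest p where none was called, with up to 4 called regions per pathway list. Chosen after their values were seen were the LIF region at 36.0 kb, the CSF2 region at 28.4 kb, the IL6 region nearest the RefSeq start and those among the other observations.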

Additional observations from a re-analysis of the deposited data

Results flagged for a closer look

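For 6 member regions accessibility differed between the 2 h and 18 h groups by the authors' own test (DESeq2, adjusted p under 0.05). The labels give no time for mock, so length of exposure to HMGA1 cannot be told apart from elapsed time. The log2 difference, 18 h minus 2 h, was -1.31 at the NFKBIZ region between its starts, -0.78, -0.74 and -0.74 at the LIF regions 10.7, 39.5 and 62.5 kb from the start, -0.56 at the CSF2 region and -0.55 at the CCL2 region (authors' deposited table). All 6 were lower at 18 h. Over all tested regions, 3220 were lower and 538 higher in that comparison.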

How the results depend on the processing

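The 3 member calls at 2 h (NFKBIZ, LIF and CSF2) kept their direction under every alternative run, and at an adjusted p threshold of 0.01 the one at NFKBIZ was lost. An adjusted p threshold of 0.1 gave 1 member call at 18 h against mock (the LIF region at 62.5 kb) and 10 from 2 h to 18 h, all lower; the 4 added were at IL6, CXCL1 and, for 2, LIF. Subtracting the median fold change, over all tested regions or by bins of signal, added the IL6 region, for 7 member calls from 2 h to 18 h. No filter on mean signal left 4, and a threshold of 0.01 left 4. Over all tested regions at 2 h, 737 were higher and 363 lower as deposited, 1179 and 198 after centring on the median and 1249 and 173 after centring within bins. Taking regions by position instead of gene name gave 4 calls of 123 tested at 2 h (3.25%, against 1.28% of all tested regions called), 0 of 82 at 18 h (0.121% of all) and 8 of 149 from 2 h to 18 h (5.37%, against 3.48% of all). No paired analysis was possible because the tables hold no values per library; leaving out libraries, other size factors and other count filters were not run for the same reason. No counts per library were given, so depth sets the precision only through the authors' SEs, which were larger at weak regions.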

Other observations

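Some member regions of low signal, which were left out of the adjustment in both comparisons with mock, had values above mock at both times. Regions 2.41 and 3.31 kb from the CXCL1 start, just past the end of the gene, had 0.95 ± 0.37 and 0.52 ± 0.38 at 2 h and 0.91 ± 0.37 and 0.95 ± 0.37 at 18 h (SE, authors' deposited table), with mean signals of 45.7 and 43.7. An NFKBIA region 5.30 kb from the start (mean signal 20.4) had 1.35 ± 0.57 and 1.17 ± 0.58 there in the authors' deposited table.

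Taking regions by position, 2 called regions under other gene names lay within 100 kb of a member's start. One named for IL37, an interleukin-1 family gene, lay 40.5 kb from the IL1B start. It rose by 0.75 ± 0.21 at 2 h and fell by 0.69 ± 0.21 to 18 h, with adjusted p of 0.0373 and 0.0317 (authors' deposited table). The other, named for MTHFD2L and 97.5 kb from the CXCL2 start, was higher at 18 h than at 2 h by 0.96 ± 0.30 (adjusted p 0.0459, authors' deposited table).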
